A study of Mus musculus with 16 samples.

Results

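The receptors described here are 55 odorant receptors of mouse chromosome 11, a chromosome on which some receptors responded to 1-pentanethiol on these arrays. They were taken by name, as probe sets whose symbol is Olfr with a number in 1 of 3 ranges: Olfr313 to Olfr332 (14 receptors), Olfr376 to Olfr412 (24) and Olfr1371 to Olfr1396 (17). The rule leaves out Olfr325, Olfr328, Olfr330, Olfr1384, Olfr1394, Olfr1395 and Olfr1396, as was decided with results of these arrays known; none of the 7 lies in Olfr376 to Olfr412. The 55 are part of the 1080 odorant receptor probe sets and of 22206 tested probe sets. RNA came from the olfactory mucosa of S100a5-tauGFP reporter mice of both sexes, 7 to 12 weeks old, 24 animals in 8 pools of 3. Single animals were kept for 40 h in chambers flushed at 3.1 L/min, and after 26 h the stimulus was given for 10 s once every 20 min. The 4 pools of the odor group received 1-pentanethiol, a thiol with a strong smell, and the 4 pools of the vehicle group received filtered air. Dissociated cells of each pool were sorted by fluorescence into a GFP+ and a GFP- sample, which gives 4 groups of 4 arrays: odor GFP+, odor GFP-, vehicle GFP+ and vehicle GFP-. All 4 groups carry the reporter. The series' design text names bourgeonal as the odor, whereas its title and the sample labels name 1-pentanethiol, and the labels were followed.

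Odorant receptors are G protein-coupled receptors, and each olfactory sensory neuron expresses mainly a single receptor gene, usually from 1 of its alleles. Their genes lie in clusters in which neighbours are often relatives by duplication, named here by MOR family. S100a5 encodes a calcium-binding protein whose transcription in these neurons depends on activity, and its reporter is used to sort neurons by their recent activity. In such bulk samples fewer neurons of a receptor and less transcript per neuron cannot be told apart.

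The signals are log2 values of Clariom S probe sets, deposited by the authors. Probe sets of different genes share no scale, so levels are compared within a gene. S100a5 ran from 17.07 to 17.11 on odor GFP+ arrays against 15.77 to 16.36 on odor GFP- arrays, and from 16.55 to 16.82 on vehicle GFP+ arrays against 15.70 to 15.88 on vehicle GFP- arrays. Omp, which marks mature olfactory neurons, lay between 18.14 and 18.41 on the 16 arrays, so GFP- samples also hold these neurons. The sort moved other cells too: 5 of 5 neutrophil genes and 4 of 5 immature neuron genes were lower in GFP+ cells of both stimulus groups. The neutrophil genes averaged 7.19 to 8.91 on odor GFP+ arrays against 15.20 to 16.17 on odor GFP- arrays, and 7.12 to 8.22 on vehicle GFP+ arrays against 15.81 to 16.30 on vehicle GFP- arrays. For the immature neuron genes the averages were 10.87 to 11.55 on odor GFP+ arrays against 12.43 to 13.40 on odor GFP- arrays, and 10.61 to 11.52 on vehicle GFP+ arrays against 12.66 to 13.55 on vehicle GFP- arrays. The 3 horizontal basal cell genes, Krt5 among them, were at or below the negative controls in the 4 groups. The part of these cells in the receptor differences was not tested. Vehicle GFP+ replicate 2 stood apart in its negative controls, with a median of 7.28 where the remaining vehicle GFP+ arrays had 6.22 to 6.38, and counts without it are given in the closing part on processing.

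The MOR275 family is the place where described receptors and left-out responders meet. In the reference annotation Olfr331, Olfr330, Olfr329, Olfr328 and Olfr325 follow each other between Olfr332 and Olfr324. Of these 5 MOR275 receptors, Olfr329 and Olfr331 are described here. The start windows, 250 bases before and 50 after the annotated gene start from RefSeq (GRCm38.p6), are printed for 4 of the 5. They show how alike the genes are around that start, mostly ahead of it, and not how alike the measured transcripts are. The window of Olfr330 matched the other MOR275 windows at 38.0% to 61.3% of 300 bases. Capitals mark a run of 11 bases that the 4 windows share ahead of or across the annotated start.
Olfr331, chr11:58502523-58502822, minus strand: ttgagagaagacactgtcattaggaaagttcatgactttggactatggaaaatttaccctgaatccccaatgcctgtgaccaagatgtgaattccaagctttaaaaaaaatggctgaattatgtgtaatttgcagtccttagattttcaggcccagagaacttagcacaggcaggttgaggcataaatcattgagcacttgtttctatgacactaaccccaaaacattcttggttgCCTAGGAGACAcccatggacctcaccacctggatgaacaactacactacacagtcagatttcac
Olfr329, chr11:58543434-58543733, minus strand: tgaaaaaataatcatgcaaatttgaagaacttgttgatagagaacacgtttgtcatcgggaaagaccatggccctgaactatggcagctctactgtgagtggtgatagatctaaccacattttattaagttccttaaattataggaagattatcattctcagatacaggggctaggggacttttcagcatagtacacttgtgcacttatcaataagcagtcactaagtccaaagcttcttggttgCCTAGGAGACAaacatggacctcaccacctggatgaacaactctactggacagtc
Olfr328, chr11:58552188-58552487, minus strand: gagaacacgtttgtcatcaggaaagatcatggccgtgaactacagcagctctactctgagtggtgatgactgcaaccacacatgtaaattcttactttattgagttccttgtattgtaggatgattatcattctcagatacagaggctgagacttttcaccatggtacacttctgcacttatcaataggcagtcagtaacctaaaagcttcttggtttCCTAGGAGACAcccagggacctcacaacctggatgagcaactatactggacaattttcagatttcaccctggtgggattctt
Olfr325, chr11:58580587-58580886, plus strand: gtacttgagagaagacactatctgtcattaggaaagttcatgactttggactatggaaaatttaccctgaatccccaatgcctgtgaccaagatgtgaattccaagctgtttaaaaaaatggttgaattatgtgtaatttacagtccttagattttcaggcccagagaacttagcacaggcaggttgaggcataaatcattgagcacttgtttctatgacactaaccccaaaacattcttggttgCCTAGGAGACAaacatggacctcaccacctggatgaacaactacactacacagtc
Olfr331 and Olfr325 matched at 286 of 300 bases (95.3%), and Olfr329 and Olfr328 at 228 (76.0%), where the median over 1378 pairs of the 53 windows found in the ranges was 48.7%. Probe sequences were not used here, so whether the Olfr331 probe set also reads Olfr325 transcript was not tested.

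Olfr329 was higher in GFP+ cells under both stimuli. It read 14.29, 14.79, 14.48 and 14.51 on the odor GFP+ arrays of pools 1 to 4, against 10.87, 11.03, 10.66 and 10.17 on the odor GFP- arrays. On the vehicle GFP+ arrays it read 13.89, 13.81, 14.35 and 14.81, against 11.29, 12.02, 12.69 and 12.16 on the vehicle GFP- arrays. The fractions did not overlap under either stimulus, the GFP+ arrays of both stimuli did overlap, and the odor GFP- arrays lay below each vehicle GFP- array. The sort difference, GFP+ minus GFP-, was 3.83 ± 0.27 in the odor pools (14.2-fold, limma adjusted p = 1.33e-08) and 2.17 ± 0.27 in the vehicle pools (4.51-fold, adjusted p = 9.45e-06; SE, n = 4 arrays per group here and below).

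Olfr331, its relative on the far side of Olfr330, was higher in GFP+ cells of the odor pools, at signals closer to the negative controls. It read 8.18, 7.66, 8.28 and 7.58 in odor GFP+ cells, against 6.28, 6.29, 6.46 and 6.21 in odor GFP- cells, where the negative controls had medians of 6.04 to 6.10. It read 7.24, 7.63, 7.43 and 7.07 in vehicle GFP+ cells, against 6.93, 6.60, 7.11 and 7.18 in vehicle GFP- cells. The fractions were apart in the odor pools (1.61 ± 0.18, 3.05-fold, adjusted p = 2.12e-06) and overlapped in the vehicle pools (0.39 ± 0.18, adjusted p = 0.133). The vehicle difference passed with array medians set equal (0.74, adjusted p = 0.00240), a setting where 58.6% of all probe sets were higher. It also passed after quantile normalization (0.70, adjusted p = 0.00664).

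**Figure D1:**
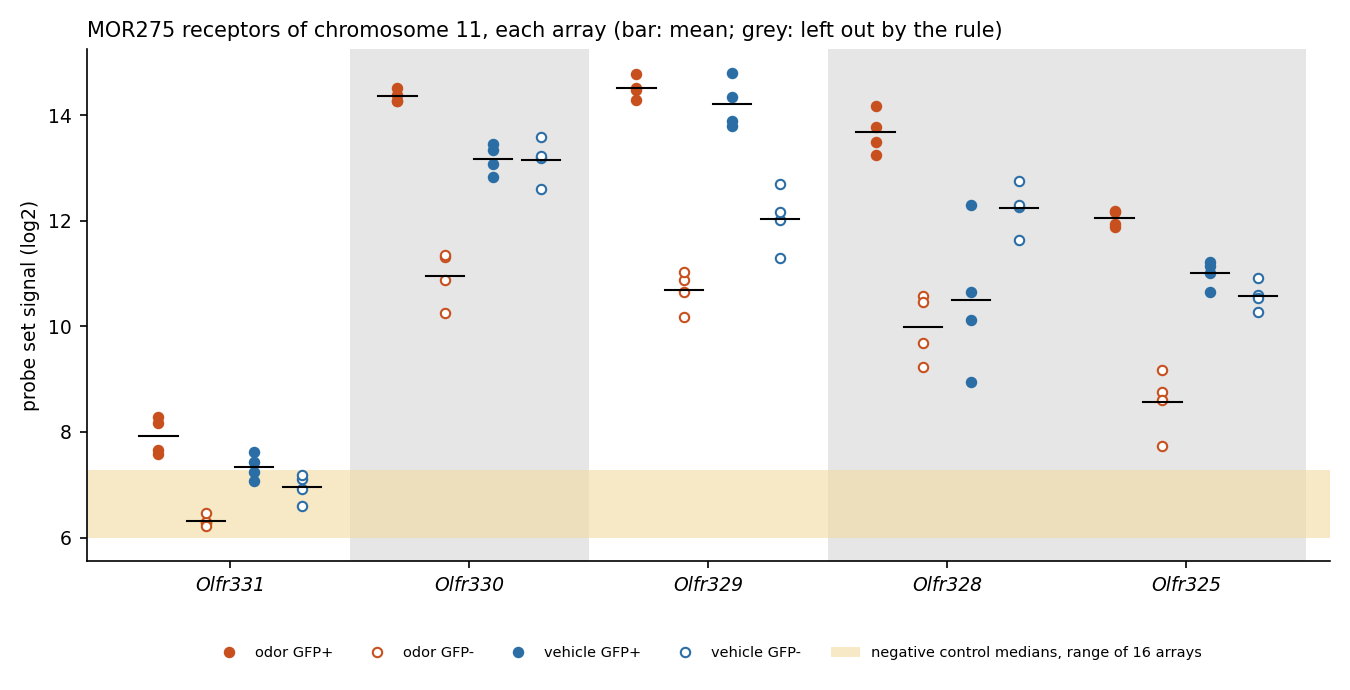
Log2 probe set signal (y axis) of the 5 MOR275 receptors of chromosome 11 (x axis, annotated order), a point per array with the mean as a bar, in odor GFP+, odor GFP-, vehicle GFP+ and vehicle GFP- cells. Olfr329 and Olfr331 stood apart between fractions in the odor pools, and the band shows the negative control medians of the 16 arrays; grey columns are receptors left out by the rule.

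The gain, the sort difference of the odor pools minus that of the vehicle pools, asks whether the difference between fractions depended on the stimulus. No described receptor passed for it: 0 of 55 were higher (0.063% of all probe sets) and 0 were lower (0.0%), with 3 at an unadjusted p under 0.05. The left-out receptors Olfr325, Olfr328, Olfr330, Olfr1395 and Olfr1396 did pass and Olfr1384 and Olfr1394 did not, so the rule itself shapes this count. The gains ran from -0.75 to 1.66, with 46 of the 55 within 0.5 of 0 and a median of 0.07, against -0.19 for the 1018 receptors outside the ranges and 0.01 for all probe sets. The 2 gains over 1 were those of the MOR275 receptors.

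For Olfr329 the sort difference was 3.41, 3.75, 3.82 and 4.34 in the odor pools, against 2.60, 1.79, 1.66 and 2.65 in the vehicle pools. Its gain was 1.66 ± 0.38, with a 95% interval of 0.85 to 2.47 (adjusted p = 0.332). For Olfr331 the sort difference was 1.89, 1.37, 1.82 and 1.36 in the odor pools, against 0.32, 1.02, 0.32 and -0.11 in the vehicle pools, a gain of 1.22 ± 0.25 with an interval of 0.70 to 1.75 (adjusted p = 0.166). In both receptors each odor pool lay above each vehicle pool, and neither passed the threshold over all probe sets. In all, the pools of 3 described receptors did not overlap with the odor higher (1.85% of all probe sets) and those of 0 with the odor lower (1.46%), the third being Olfr1381 at 0.29 ± 0.22.

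The MOR275 genes beside them had larger gains: 5.42 for Olfr328 (adjusted p = 0.00158), 3.37 for Olfr330 (adjusted p = 9.95e-05) and 3.05 for Olfr325 (adjusted p = 0.000254). At the edges of the same run stand receptors of other families. Olfr324, a MOR102 receptor next to Olfr325, had a gain of 0.12 ± 0.66, and Olfr332, a MOR284 receptor next to Olfr331, had fractions of 13.37 and 13.48 in the odor pools and 13.38 and 13.33 in the vehicle pools (GFP+ before GFP-). Around Olfr1384, a left-out MOR256 receptor with a gain of 0.06, the neighbours Olfr1385 and Olfr1383 had gains of 0.04 ± 0.34 and 0.29 ± 0.44. The third lowest p among the described receptors was that of Olfr384 of the MOR135 family, with a gain of 0.89 ± 0.27 (adjusted p = 0.792). Its sort difference was 0.47 in the odor pools and -0.43 in the vehicle pools, and neither passed. The odor difference of Olfr384 passed with array medians set equal (0.79, adjusted p = 0.00276), a setting where 59.0% of all probe sets were higher. It also passed after quantile normalization (0.79, adjusted p = 0.00504). The vehicle difference of Olfr384 passed with receptor medians set equal (-0.65, adjusted p = 0.0261).

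**Figure D2:**
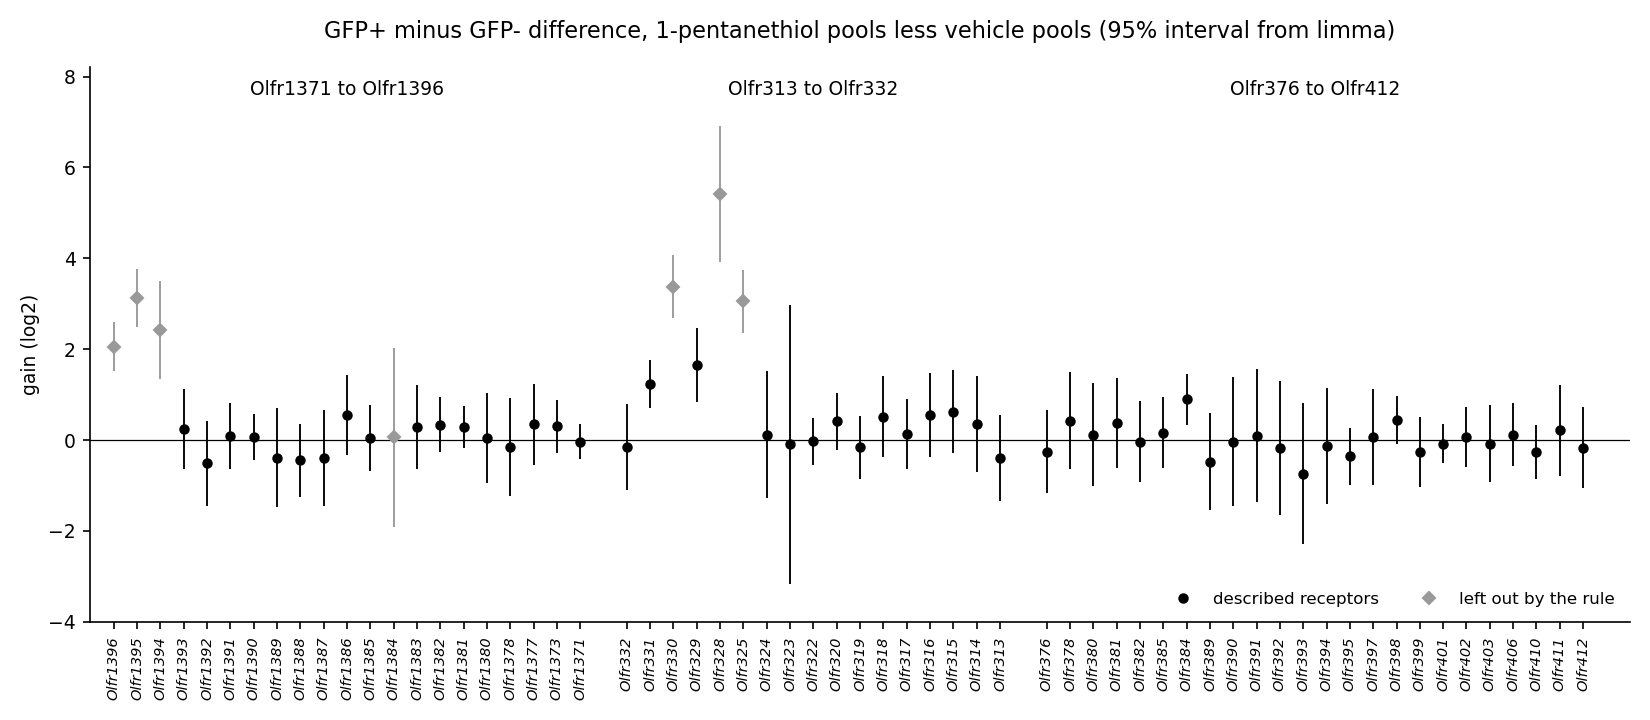
Gain in log2 units (y axis: GFP+ minus GFP- in odor pools less the same in vehicle pools) of the receptors of the 3 ranges in annotated order (x axis), with 95% intervals from limma and n = 4 pools per stimulus. The 2 described receptors over 1 are Olfr331 and Olfr329, among the left-out receptors drawn in grey.

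Set against vehicle within a fraction, 1-pentanethiol moved none of the 55 past the threshold. In GFP+ cells 0 were higher (0.0766% of all probe sets) and 0 lower (0.0%), with 3 at an unadjusted p under 0.05. In GFP- cells 0 were higher (0.00901%) and 0 lower (0.0405%), with 7 at an unadjusted p under 0.05. Of the 7 left-out receptors, 3 were higher with the odor in GFP+ cells and 3 were lower in GFP- cells. The rule thus shapes these counts too. The GFP- arrays of the 2 stimuli did not overlap for Olfr329, Olfr331 and Olfr315, with the odor lower (1.37% of all probe sets), or for Olfr1389, with the odor higher (1.24%). No described receptor was without overlap in GFP+ cells. The lowest p-values in GFP+ cells were those of Olfr331 (0.58 ± 0.18, adjusted p = 0.485), Olfr384 (0.44 ± 0.19, adjusted p = 0.659) and Olfr320 (0.46 ± 0.21, adjusted p = 0.688), and none of these passed.

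Olfr329 differed by -1.36 ± 0.27 between odor and vehicle GFP- cells (adjusted p = 0.147) and by 0.30 between odor and vehicle GFP+ cells, where its means were 14.52 and 14.22. Without vehicle replicate 1 the GFP- difference was -1.61 and passed (adjusted p = 0.0334), so this call depends on 1 pool. Olfr315 and Olfr314, the MOR278 receptors of the set, also had lower GFP- means with the odor. Olfr315 read 7.50, 7.19, 7.52 and 6.80 in odor GFP- cells, against 8.55, 8.33, 8.11 and 8.30 in vehicle GFP- cells, a difference of -1.07 ± 0.30 that did not pass. Its GFP+ signals were 10.16, 9.98, 10.64 and 10.42 with the odor, against 10.30, 9.78, 11.45 and 11.45 with vehicle. Olfr314 had a GFP- mean of 6.19 with the odor against 7.19 with vehicle, and a GFP+ mean of 8.47 against 9.11, so its gain was 0.36 ± 0.50. Both of its differences missed the threshold, and its odor GFP- signal lay near the negative controls.

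The larger differences among these receptors lay between the fractions, whatever the stimulus. In the odor pools 16 of 55 were higher in GFP+ cells (11.3% of all probe sets), 17 were lower (11.9%) and 22 did not pass. In the vehicle pools 14 were higher (9.34%), 16 lower (11.8%) and 25 did not pass. Of the 1018 receptors outside the ranges, 375 were higher and 276 lower in the odor pools, and 385 and 245 in the vehicle pools, so calls in both directions were frequent among odorant receptors at large. The median sort difference of the 55 was 0.04 in the odor pools and -0.13 in the vehicle pools, against 0.26 and 0.29 for the receptors outside the ranges and 0.13 and 0.11 for all probe sets. With array medians set equal, which adds 0.33 and 0.35 to the median of all probe sets in the 2 sorts, the split became 26 higher and 14 lower in the odor pools (47.3% and 25.5% of the 55, against 59.0% and 9.05% of all probe sets). In the vehicle pools it became 22 higher and 14 lower (40.0% and 25.5%, against 58.6% and 9.04%).

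The 2 sorts share no array. In both, 13 receptors were higher, 15 lower and 20 passed in neither, while 5 passed in the odor pools alone and 2 in the vehicle pools alone, and 0 passed in opposite directions. A call in 1 sort alone does not show that the sorts differ, and the gain, which tests that, was passed by none. Across the 55 receptors the sort differences correlated with a Pearson r of 0.982 and a Spearman rho of 0.969, as a description of genes measured on the same 8 pools. They ran from -5.68 to 3.83 in the odor pools and from -5.45 to 2.98 in the vehicle pools. The rule leaves out the 5 receptors of these ranges that passed for the gain, so it shapes the agreement among the 55.

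**Figure D3:**
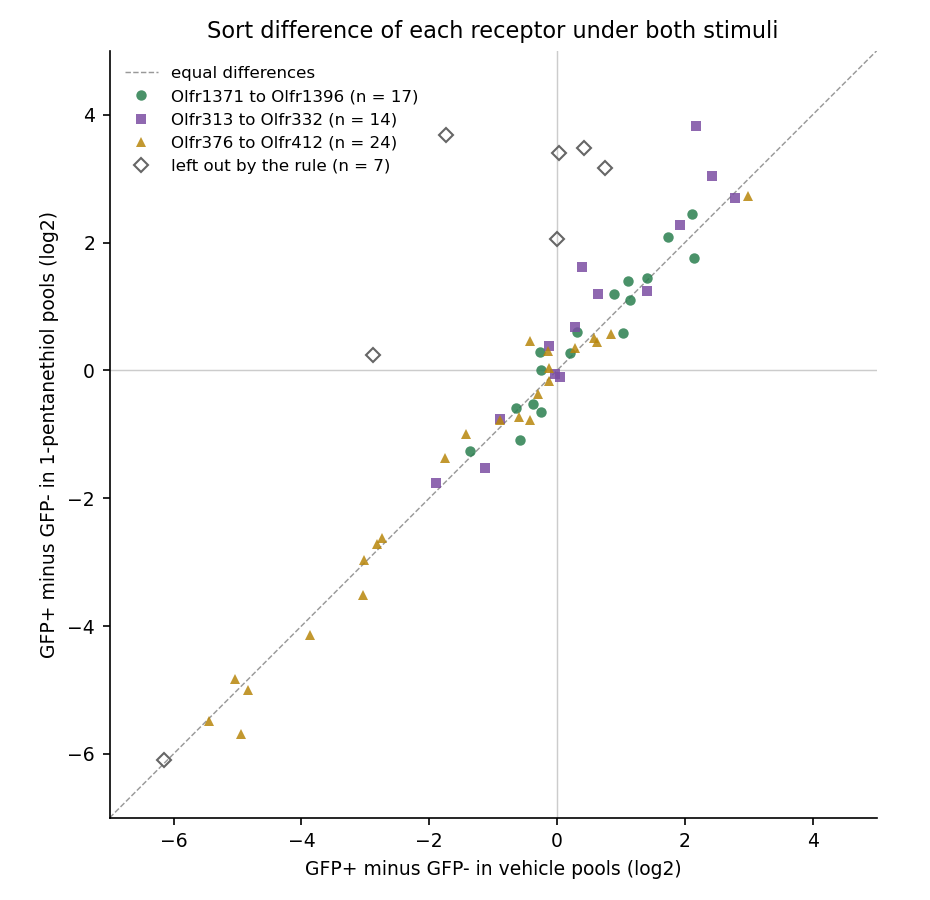
Sort difference (log2, GFP+ minus GFP-) of each receptor in odor pools (y axis) and vehicle pools (x axis), coloured by number range, with the 7 receptors left out by the rule as open diamonds. The 55 described receptors lie along the dashed line of equal differences, with Olfr329 (3.83 and 2.17) and Olfr331 (1.61 and 0.39) above it. The 5 receptors that passed for the gain are among those left out, so the rule shapes this picture.

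The receptors that were lower in GFP+ cells were gathered in Olfr376 to Olfr412, where 12 of 24 were lower and 2 higher in each sort (medians -0.77 in odor and -0.75 in vehicle pools). Of all probe sets, 11.3% were higher and 11.9% lower in the odor pools, and 9.34% and 11.8% in the vehicle pools. The higher count of this range moved with the scaling. With array medians set equal it had 7 higher and 10 lower in the odor pools and 5 higher and 11 lower in the vehicle pools. Of all probe sets, 59.0% were higher and 9.05% lower in the odor pools at that setting, and 58.6% and 9.04% in the vehicle pools. After quantile normalization 4 and 3 receptors of the range were higher. In Olfr313 to Olfr332, 7 of 14 were higher and 3 lower in the odor pools, and 4 higher and 3 lower in the vehicle pools. In Olfr1371 to Olfr1396, 7 of 17 were higher and 2 lower in the odor pools, and 8 higher and 1 lower in the vehicle pools. Within Olfr376 to Olfr412, the uninterrupted run of 10 receptors from Olfr389 to Olfr399 held 8 lower and 0 higher in the odor pools, and 7 lower and 0 higher in the vehicle pools (medians -3.24 and -3.03). With array medians set equal, 1 receptor of this run, Olfr398, was higher in the odor pools and 7 were lower in each sort.

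Most of this run belongs to the MOR135 family, of which 15 receptors are described here: 9 were lower and 1 higher in each sort, with medians of -1.37 in odor and -1.75 in vehicle pools. Of the 2 MOR135 receptors elsewhere, 1 was lower in each sort. Olfr390 read 8.83, 8.27, 9.04 and 6.57 in odor GFP+ cells, against 13.94, 13.83, 13.26 and 13.61 in odor GFP- cells, and 8.62, 8.54, 8.99 and 6.69 in vehicle GFP+ cells, against 13.85, 13.61, 13.51 and 13.66 in vehicle GFP- cells. Each GFP+ array was far below each GFP- array, and pool 4 was low in the GFP+ fraction of both stimuli. The differences were -5.48 ± 0.48 in the odor pools (adjusted p = 1.42e-07) and -5.45 ± 0.48 in the vehicle pools (adjusted p = 1.6e-07), so signal was 44.8-fold and 43.6-fold lower in GFP+ cells.

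Olfr393 read 9.89, 8.22, 7.95 and 6.48 in odor GFP+ cells, against 13.90, 13.99, 13.44 and 13.95 in odor GFP- cells. In vehicle GFP+ cells it read 9.55, 8.44, 9.93 and 8.57, against 14.14, 14.11, 13.28 and 14.72 in vehicle GFP- cells. The fractions were apart by -5.68 ± 0.52 in the odor pools and -4.94 ± 0.52 in the vehicle pools (adjusted p = 2.51e-07 and 1.35e-06), although its GFP+ arrays spread over more than 3 log2 units in the odor pools. Olfr392, Olfr389, Olfr397 and Olfr391 were lower by the same test, by -5.01, -3.51, -2.96 and -2.72 in the odor pools and by -4.83, -3.04, -3.03 and -2.81 in the vehicle pools. Olfr397 and Olfr391 were near the negative controls in GFP+ cells of both stimuli, where the measured difference can understate the true one.

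The run was not uniform. Olfr394, which lies between Olfr393 and Olfr395, read 14.05, 13.56, 12.68 and 13.08 in odor GFP+ cells, against 14.08, 13.93, 14.03 and 14.27 in odor GFP- cells. It read 14.17, 11.91, 13.33 and 14.40 in vehicle GFP+ cells, against 13.87, 13.94, 13.59 and 14.82 in vehicle GFP- cells. Its fractions overlapped in both sorts, at -0.73 ± 0.43 (adjusted p = 0.229) and -0.60 ± 0.43 (adjusted p = 0.345). Olfr398, a MOR157 receptor, differed by 0.30 ± 0.18 in the odor pools and -0.14 ± 0.18 in the vehicle pools, without passing. Olfr395 was near the negative controls in the 4 groups, with a mean of 4.83 over all arrays, and its call in the odor pools (-0.77, adjusted p = 0.013) was lost with array medians set equal.

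**Figure D4:**
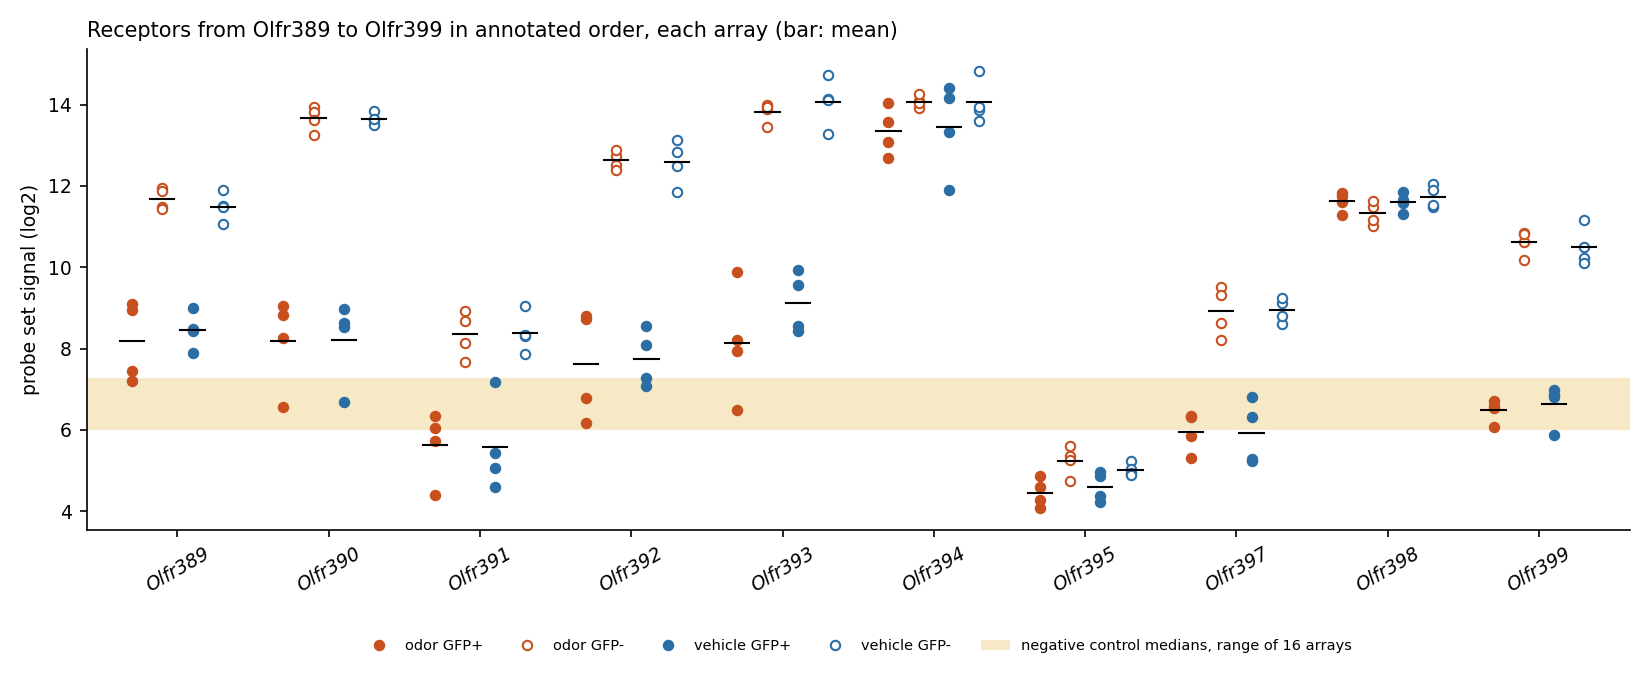
Log2 probe set signal (y axis) of the 10 receptors from Olfr389 to Olfr399 in annotated order (x axis), a point per array with the mean as a bar, in odor GFP+, odor GFP-, vehicle GFP+ and vehicle GFP- cells. GFP+ and GFP- arrays were far apart for Olfr390, Olfr392 and Olfr393 and overlapped for Olfr394 and Olfr398; the band shows the negative control medians.

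Olfr376, at the other end of the range, was the 1 MOR135 receptor that was higher in GFP+ cells. It read 8.78, 8.35, 8.07 and 8.96 in odor GFP+ cells, against 6.02, 5.38, 6.21 and 5.63 in odor GFP- cells, and 8.93, 7.34, 8.90 and 8.60 in vehicle GFP+ cells, against 5.57, 5.21, 5.19 and 5.86 in vehicle GFP- cells. The fractions did not overlap, at 2.73 ± 0.31 in the odor pools (adjusted p = 3.04e-06) and 2.98 ± 0.31 in the vehicle pools (adjusted p = 1.07e-06). Its GFP- signal lay near the negative controls, so these differences too may be understated. Olfr382, Olfr384, Olfr385 and Olfr394 passed in neither sort. Olfr378 passed in the vehicle pools alone, at -1.42 against -0.99 in the odor pools.

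The start windows of the MOR135 genes were searched for short motifs on both strands. No window was found for Olfr376, which was higher in GFP+ cells, or for Olfr394, which passed in neither sort. TAATGA is a core bound by LIM and other homeodomain proteins, some of which act in receptor choice. It occurred in 12 of 13 MOR135 windows (92.3%), in 18 of 47 windows of described receptors (38.3%), in 28.8% of 944 odorant receptor windows and in 9.78% of 32851 windows in all. By range it was in 12 of 20 windows of Olfr376 to Olfr412, 2 of 11 of Olfr313 to Olfr332 and 4 of 16 of Olfr1371 to Olfr1396. MOR135 windows are related, for example Olfr380 and Olfr381 at 82.7% of 300 bases, so their matches are not independent. The stretches around TAATGA are shown for 3 receptors that were far lower in GFP+ cells and for Olfr382, which passed in neither sort. They were chosen after their values were seen. Capitals mark a TAATGA match or its reverse complement TCATTA. In the stretch of Olfr393 a TAATGA overlaps the marked TCATTA and is not marked in full.
Olfr390, chr11:73786741-73786770, plus strand: taaaaggcggaaTAATGAaacattaaaaag
Olfr392, chr11:73816888-73816917, minus strand: tgttctttcttaTAATGAataagggtgacc
Olfr393, chr11:73848264-73848293, minus strand: gttggaggaaaaTCATTAatgattgtaatg
Olfr382, chr11:73517325-73517354, minus strand: aaatattgacagTAATGAttgtagatatta
The window of Olfr393 held 3 matches and that of Olfr382 held 2, and a match describes the letters, not a site in use. TAATTA was in 10 of 47 windows (21.3%, against 18.6% of receptor windows and 5.29% of all), with no overlap with TAATGA in a described receptor. CCCNNGGG, the core of the OLF1/EBF motif, was in 1 of 47 (2.13%, against 3.07% and 13.7%). In 33 of the 47 windows the annotated start is an ATG, so the window may begin at the coding sequence rather than at the start of transcription.

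Of 5 MOR255 receptors in the set, 2 were lower and 1 higher in each sort, and with receptor medians set equal 0 were higher, the call of Olfr410 being lost. Olfr411 read 9.58, 8.77, 8.90 and 7.66 in odor GFP+ cells, against 13.57, 13.76, 13.07 and 13.81 in odor GFP- cells, and 8.93, 8.72, 9.18 and 7.85 in vehicle GFP+ cells, against 13.56, 13.69, 13.43 and 14.14 in vehicle GFP- cells. These groups were apart by -4.83 ± 0.34 and -5.04 ± 0.34 (adjusted p = 1.11e-08 and 6.66e-09). Olfr399 was lower by -4.13 ± 0.26 in the odor pools and -3.87 ± 0.26 in the vehicle pools, with its GFP+ signal near the negative controls. Of the 24 receptors from Olfr376 to Olfr412, Olfr376 and Olfr410 were the 2 that were higher in each sort.

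**Figure D5:**
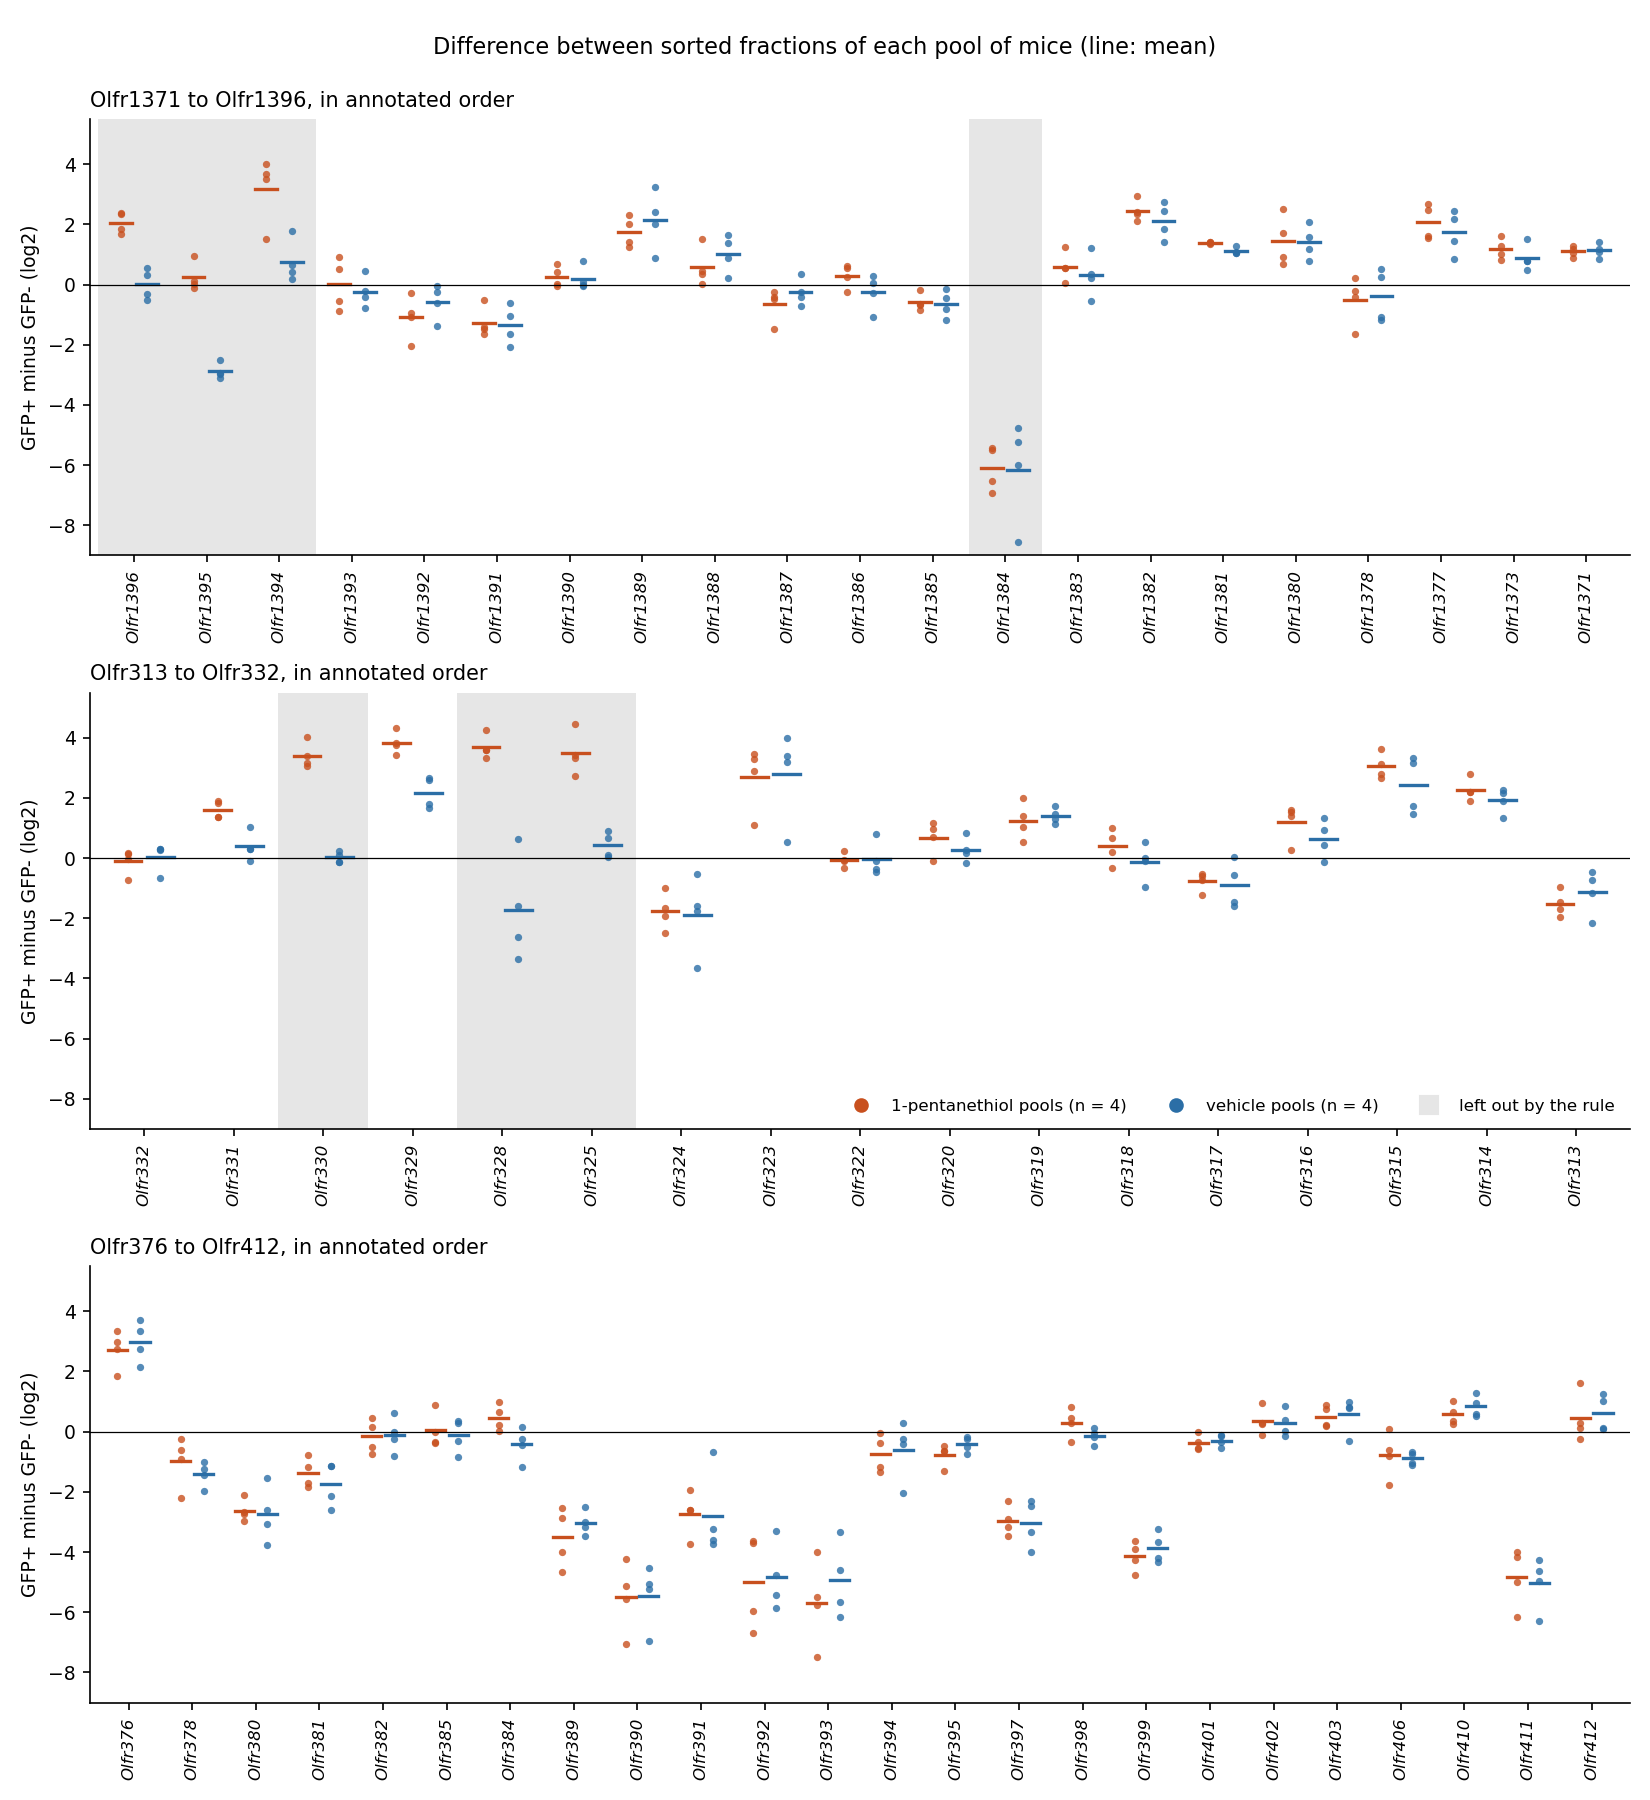
GFP+ minus GFP- difference in log2 units (y axis) of each odor pool and each vehicle pool, a point per pool with the mean as a line, for the receptors of the 3 ranges in annotated order (x axis). The low values gather from Olfr389 to Olfr399 and at Olfr411, and grey columns are receptors left out by the rule.

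The receptors that were higher in GFP+ cells came from several families. Olfr315 was higher by 3.05 ± 0.30 in the odor pools and 2.42 ± 0.30 in the vehicle pools (adjusted p = 7.05e-07 and 1.02e-05). Olfr314, the other MOR278 receptor, was higher by 2.27 ± 0.36 and 1.92 ± 0.36. The odor GFP- signal of Olfr314 lay near the negative controls, so its difference in the odor pools may be understated. Of 4 MOR285 receptors, 3 were higher and 0 lower in the odor pools, and 1 higher and 0 lower in the vehicle pools, Olfr319 being higher in both (1.24 ± 0.23 and 1.40 ± 0.23). The call for Olfr320 in the odor pools (0.68, adjusted p = 0.0275) was lost without odor replicate 1, 2 or 4, at 0.59, 0.52 and 0.68. Olfr1377, a MOR129 receptor, was higher by 2.08 ± 0.30 and 1.74 ± 0.30.

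MOR256, of which 15 receptors are described here, went both ways, with 4 higher and 3 lower in the odor pools and 5 higher and 2 lower in the vehicle pools. The 32 MOR256 receptors elsewhere had 12 higher and 5 lower in the odor pools, and 13 higher and 6 lower in the vehicle pools. Olfr1382 read 12.83, 12.69, 12.52 and 12.94 in odor GFP+ cells, against 10.43, 10.36, 10.41 and 9.98 in odor GFP- cells, and 12.79, 11.67, 12.57 and 12.43 in vehicle GFP+ cells, against 10.04, 10.26, 10.14 and 10.57 in vehicle GFP- cells. Its fractions did not overlap, at 2.45 ± 0.20 and 2.11 ± 0.20 (adjusted p = 7.61e-08 and 4.26e-07). Olfr1389 was higher by 1.75 ± 0.37 and 2.14 ± 0.37. Between these 2 genes in the annotated run lies Olfr1384, which was lower by -6.09 and -6.15.

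Olfr1380 and Olfr1381, neighbours whose windows match at 96.3% of 300 bases, were both higher, by 1.45 ± 0.33 and 1.39 ± 0.15 in the odor pools and by 1.41 ± 0.33 and 1.10 ± 0.15 in the vehicle pools. Most of a window lies before the annotated start, so this match does not show how alike the transcripts are. Whether the probe sets separate the transcripts of Olfr1380 and Olfr1381 was not tested. Over 42 neighbouring pairs within runs the median absolute difference was 1.26 in the odor pools and 1.39 in the vehicle pools, against 1.41 and 1.37 over all 195 pairs within runs.

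Among single pools, Olfr323, a MOR107 receptor that stands alone between runs, is named after its values were seen. It read 6.64, 9.93, 9.94 and 11.34 in odor GFP+ cells of pools 1 to 4, against 5.55, 7.03, 6.64 and 7.88 in odor GFP- cells. It read 6.11, 10.43, 10.82 and 11.31 in vehicle GFP+ cells, against 5.57, 7.24, 6.84 and 7.91 in vehicle GFP- cells. Replicate 1 was the lowest and replicate 4 the highest in the 4 groups, although odor and vehicle pools hold different mice. In an F test of the replicate number in limma, added after the data were seen, Olfr323 was the 1 described receptor of 55 to pass (adjusted p = 0.0152, 0.324% of all probe sets), and 24 of the 1018 receptors outside the ranges passed. The sort differences of Olfr323 were 2.69 ± 1.03 and 2.78 ± 1.03 without passing (adjusted p = 0.0693 and 0.0652), and with the pool as a block they passed (adjusted p = 0.00285 and 0.00228). What a replicate number stands for is not given in the sources used here.

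Signal near the negative controls, meaning a group mean above their mean median by at most the SD of that receptor's own 4 arrays, so that variable receptors qualify at higher means, was found for 12 receptors in odor GFP+, 7 in odor GFP-, 12 in vehicle GFP+ and 4 in vehicle GFP- cells, and for Olfr395 and Olfr1390 in the 4 groups. In each sort 7 of the receptors called lower had GFP+ signal that near. Of 15 genes of receptor signalling and trafficking, such as the olfactory G protein Gnal and the chaperone Rtp1, 4 were higher in GFP+ cells of the odor pools and 3 in those of the vehicle pools. Of these 15, 0 were lower and 0 passed for the gain, and their medians were 0.17 and 0.18. Of all probe sets, 11.3% were higher and 11.9% lower in the odor pools, and 9.34% and 11.8% in the vehicle pools. The medians of all probe sets were 0.13 and 0.11. Setting the array medians equal gave 15 of 15 signalling and trafficking genes higher in each sort, at a setting where 59.0% and 58.6% of all probe sets were higher. Of 10 genes of receptor choice, such as Lhx2 and Ldb1, 0 were higher and 1 lower in the odor pools, and none of the 10 passed in the vehicle pools (1 at an unadjusted p under 0.05). With array medians set equal, 4 of these 10 were higher and 0 lower in the odor pools, and 7 higher and 0 lower in the vehicle pools.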

How the data were processed

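Log2 signals of probe sets were deposited by the authors for 16 Clariom S arrays; per the submitters' processing notes they were made with Affymetrix Expression Console, and its version and normalization were not given in the sources used here. Of 28846 features, 22206 outside the control classes were tested, with no further scaling or filter. The negative control entries (5222) gave the level of nonspecific signal, and precision is limited by there being 4 arrays per group.

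A model with a mean per group was fitted over the 16 arrays (limma 3.58.1, R 4.3.3). It gave 5 comparisons: the GFP+ minus GFP- sort of odor pools, that of vehicle pools, the odor effect within each fraction, and the gain. Tests were two-sided, at a Benjamini-Hochberg adjusted p under 0.05 over all tested probe sets, and the fit was tested on simulated data. Pools are separate groups of mice. GFP+ and GFP- arrays of a pool come from the same mice and so are paired; the residuals of such arrays correlated with r of 0.0119 to 0.224. Arrays of the same replicate number in odor and vehicle groups come from different mice. Their residuals correlated with r of 0.186 to 0.29 in GFP- cells and of 0.0311 to 0.256 in GFP+ cells. The main fit held no block for pool or replicate number. Sort and gain counts with such a block are given in the closing part on processing.

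The receptors, lists and tests were chosen with earlier results of these data known. Receptors were named as the up to 8 highest and 8 lowest past the threshold per comparison (the 3 with the lowest p where fewer than 3 passed), the neighbours of left-out receptors and the 3 highest and 3 lowest mean signals. Parts of that rule that need protein sequences were not used here. Olfr319, Olfr323, Olfr378, Olfr382, Olfr385, Olfr398, Olfr410 and Olfr1381 fall outside it and were named after their values were seen. The F test of the replicate number was also added then. Windows came from RefSeq (GRCm38.p6), and gene order and families from its annotation, of which names alone are used, since the array files' own build was not stated. Alternatives were a block for pool or replicate number, 3 scalings, a filter on dim probe sets, a variance trend, the compared groups alone, leaving out the array that stands apart, and leaving out each pool.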

Additional observations from a re-analysis of the deposited data

Results flagged for a closer look

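In 5 of 140 groups checked for a value far from the rest, 1 array stood apart by Dixon's criterion, and chance gives about 1 in 20 groups. The check covered the 28 receptors named by the rule and the 7 left-out receptors. The remaining described receptors were not checked. Olfr1382 read 9.98 in odor GFP- cells of replicate 4, against 10.36 to 10.43 in the others. Olfr324 read 9.49 in vehicle GFP+ cells of replicate 2, against 11.26 to 11.55, and 11.81 in vehicle GFP- cells of replicate 3, against 13.15 to 13.27. Olfr399 read 5.89 in vehicle GFP+ cells of replicate 1, against 6.82 to 6.99. The left-out Olfr1384 read 14.04 in vehicle GFP- cells of replicate 1, against 13.21 to 13.34.

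Of the receptors left out by the rule, 5 had a sort difference that differed between the stimuli by the limma test of the gain: 5.42 for Olfr328, 3.37 for Olfr330, 3.12 for Olfr1395, 3.05 for Olfr325 and 2.05 for Olfr1396.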

How the results depend on the processing

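With array medians set equal, 26 described receptors were higher in the odor sort and 22 in the vehicle sort (47.3% and 40.0%, against 59.0% and 58.6% of all probe sets); the all-probe-set medians move by 0.33 and 0.35 there. Other scalings, filters and fits kept the sort counts over all 55 within 1.5 times, but not those of smaller lists. After quantile normalization Olfr376 to Olfr412 had 4 higher in the odor sort and Olfr313 to Olfr332 had 1 lower in the vehicle sort. With receptor medians set equal Olfr1371 to Olfr1396 had 3 lower in the vehicle sort, and MOR255 had 0 higher in each. Leaving out a pool at a time gave 13 to 16 higher and 12 to 18 lower in the odor sort, 13 to 15 and 13 to 16 in the vehicle sort, 0 to 0 for the gain and in GFP+ cells, and 0 to 1 lower in GFP- cells with the odor (Olfr329). Without the vehicle GFP+ array of replicate 2 the vehicle sort had 17 higher and 14 lower. With the pool as a replicate block the odor sort had 17 higher and 19 lower, the vehicle sort 15 and 17, and the gain 0 and 0; with the replicate number as a block these were 17 and 18, 15 and 17, and 0 and 0. The pool block added the calls of Olfr323 and Olfr1385 in both sorts (Olfr1385: -0.60 and -0.64, adjusted p = 0.0312 and 0.0231) and of Olfr378 in the odor sort (adjusted p = 0.0242), and changed no other call of a described receptor. The gain of Olfr329 ran from 1.49 to 1.82 over the alternatives and that of Olfr331 from 1.06 to 1.43, with lowest adjusted p-values of 0.126 and 0.0517.

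Differences near 0 changed sign, none of them past the threshold. With array medians set equal they were 0.22 for Olfr332 in the odor sort, and 0.22 for Olfr318 and 0.053 for Olfr401 in the vehicle sort. With receptor medians set equal they were -0.033 for Olfr1390 and -0.18 for Olfr332 in the vehicle sort. Leaving out 1 pool, or the vehicle GFP+ array of replicate 2, gave -0.20 to 0.093 for Olfr332 in the odor sort, and in the vehicle sort -0.0043 to 0.28 for Olfr1390, -0.036 to 0.30 for Olfr332 and -0.35 to 0.15 for Olfr318. The gains ran from -0.17 to 0.21 for Olfr1385 and from -0.47 to 0.57 for Olfr324. Such changes of single receptors were counted only for the 28 receptors named by the rule, not for all 55. Among these 28, the threshold was gained under an alternative in 17 cases and lost in 7. The losses include Olfr324 without odor replicate 3 (-1.53, adjusted p = 0.0791) or vehicle replicate 2 (-1.30, adjusted p = 0.0566). They also include Olfr395 without odor replicate 3 (-0.59, adjusted p = 0.11). The cause was not tested. Signals near the negative controls limit how well a difference can be measured, and no detection limit was computed.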
